A study of Rattus norvegicus with 6 samples.

Results

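Sphkap, Zfp804b, Pth2r, Slc35f4, Vwa5b1 and Cux2 were followed in nuclei of the rat nucleus accumbens. They are 6 of the 25629 genes measured, and they were picked from measured values, as genes that appeared to respond to naloxone in neurons expressing Chst9 or to mark those neurons. All values come from single-nucleus RNA sequencing of 6 libraries, 3 from rats given saline (replicates 1 to 3) and 3 from rats given naloxone (replicates 4 to 6). Sprague-Dawley rats of both sexes, aged 90 to 120 days, had self-administered heroin. The schedule was 7 days at 1 response per infusion, 4 days at 3 responses per infusion, a progressive ratio test on day 12, and 3 responses per infusion again on days 13 and 14. They then received saline or naloxone and were killed 1 hour later. The 12 animals (6 males, 6 females) were combined into these libraries, and each library holds both sexes. Every animal had taken heroin, so all values describe animals with a heroin history, and libraries from heroin-free rats are not analysed here. The punches were 2 mm deep, near Bregma +2.42 mm. They could hold tissue next to the nucleus accumbens.

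Chst9 encodes a sulfotransferase that adds sulfate to N-acetylgalactosamine on secreted proteins. Inhibitory neurons rich in Oprm1, the mu opioid receptor on which heroin's metabolites and the antagonist naloxone act, are found in patches of the striatum apart from the classical Drd1 and Drd2 spiny projection neurons. Opioid receptors lower cyclic AMP, and protein kinase A (PKA), the kinase that cyclic AMP activates, is held in place by A-kinase anchoring proteins (AKAPs). Sphkap (ENSRNOG00000016388) encodes such an anchoring protein, which binds type I PKA and was named for its interaction with sphingosine kinase. Pth2r (ENSRNOG00000015259) encodes a receptor of the parathyroid hormone family that couples to stimulatory G proteins and so raises cyclic AMP. Cux2 (ENSRNOG00000001259) encodes a homeobox transcription factor best known from upper-layer cortical neurons. Slc35f4 (ENSRNOG00000014982) encodes a predicted transporter of the solute carrier 35 family. Zfp804b (ENSRNOG00000031306) encodes a zinc finger protein, and Vwa5b1 (ENSRNOG00000016553) a protein with a von Willebrand factor A domain.

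The Chst9 gate held nuclei with at least 2 Chst9 UMIs (unique molecular identifiers, each standing for a captured RNA molecule) and at least 2 UMIs of Gad1 and Gad2 together, the enzymes that make GABA. It took 3515 of 58710 nuclei, between 486 and 787 in a library. All other neuron gates except the glutamatergic one allowed at most 1 Chst9 UMI. The gates were named by the gene that defines them: Drd1 (715 nuclei), Drd2 (6120), Grm8 (8573), Casz1 (928) and Drd3 (3698), each with at least 2 UMIs of that gene. The Grm8 and Casz1 gates also asked for at least 2 UMIs of Gad1 and Gad2 together. The Drd1, Drd2 and Drd3 gates, unlike the Chst9 gate, set no Gad condition. The Drd2 gate also allowed at most 1 Drd1 UMI and at most 1 Slc5a7 UMI. The cholinergic gate (476) rested on Slc5a7, the choline transporter, since Chat is not analysed here. Small gates of Sst (68), Pthlh or Pvalb (77) and glutamatergic nuclei (187) had under 20 nuclei in some library and are given as levels only. Glial gates held oligodendrocytes (10597), astrocytes (2887), oligodendrocyte precursors (1322) and microglia (1360). Gates overlapped: 36.1% of the Drd1 gate also lay in the Grm8 gate and 26.6% in the Drd3 gate, so their values are not independent. The levels below are CPM, the UMIs of a gene per 1000000 UMIs summed over the nuclei of a gate in a library. CPM is not scaled by gene length, so levels are compared between gates and libraries for a gene and never between genes.

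The libraries held between 55739350 and 76272798 UMIs, with a median of 4188 to 6427.5 per nucleus, and naloxone replicate 5 had the highest median share of mitochondrial UMIs (0.566%, against 0.153% in the lowest library). Among the nuclei used, 389 barcodes were found in more than 1 library, and among nuclei of the Chst9 gate 1 barcode was. Markers of the mu-receptor class were present in the Chst9 gate: 2548 nuclei had an Oprm1 UMI, and on average 97.3% of saline and 96.7% of naloxone nuclei had a Foxp2 UMI. Saline means in the Chst9 and Drd1 gates were 179 and 48.2 CPM for Oprm1, 2138 and 254 CPM for Grm8, and 251 and 58.2 CPM for Tshz1. Foxp2, at 2461 and 1465 CPM, was abundant in both gates, so its share alone does not mark the class. The Chst9 gate also held nuclei with markers of another neuron class or of both sexes. A Drd2 UMI was present in 459 nuclei. Both Xist and Y-linked UMIs, which mark female and male RNA, were present in 671 nuclei (19.1%), against 7.16% of all nuclei, glia included. The share was 12.3% in the Drd1 gate, 13.6% in the Drd2 gate, 12.9% in the Grm8 gate, 13.4% in the Casz1 gate and 13.2% in the Drd3 gate. These 671 nuclei had a median of 16499 UMIs, against 6311 in the rest of the gate. They contributed 52.9%, 48.0% and 36.1% of the gate's UMIs in saline replicates 1, 2 and 3 and 54.4%, 31.0% and 21.8% in naloxone replicates 4, 5 and 6. Their share therefore differed between libraries and was lowest in naloxone replicates 5 and 6, so the baseline ratios, the order of the gates and the naloxone changes are also given without them, an alternative chosen after seeing the data. Shares of nuclei with a UMI and the groups by Chst9 count include them. Markers of oligodendrocytes summed to 508 to 599 CPM in the gate's saline libraries and 313 to 910 CPM in its naloxone libraries. The share of nuclei in the gate was 6.19 ± 0.416% with saline and 5.88 ± 0.223% with naloxone (SD, n = 3 each), a difference that did not pass the test (exact two-sided permutation p = 0.2, where 0.1 is the smallest p that 3 libraries against 3 allow).

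Baseline levels, in the saline libraries, separated the 6 genes into 3 that stood high in the Chst9 gate and 3 that did not. Sphkap measured 468 ± 59.2 CPM in the Chst9 gate and 70.1 ± 14.6 CPM in the Drd1 gate (SD, n = 3 each), a ratio of 6.68 that ranged from 5.05 to 9.66 over the saline libraries. Cux2 measured 168 ± 11.7 CPM against 39.5 ± 4.93 CPM, a ratio of 4.26 (4.06 to 4.64). Vwa5b1 measured 21.0 ± 3.67 CPM against 3.55 ± 2.04 CPM, a ratio of 5.91 (3.42 to 20.2) that rests on 46 Vwa5b1 UMIs in the whole Drd1 gate. These 3 genes were higher in the Chst9 gate than in the Drd1 gate in all 3 saline libraries. The rest were not: the ratio was 1.00 for Pth2r, 0.966 for Slc35f4 and 0.680 for Zfp804b. Of 8901 genes with at least 10 CPM in either gate, 3.85% had a log2 ratio above 1, beside 3 of the 6 members. The members were chosen partly on this pattern, so the count is a description and carries no test.

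The promoter windows of the 3 genes high in the Chst9 gate are shown because these genes share a level above the Drd1 gate while their windows differ in base composition. The windows come from RefSeq (build GRCr8), cover 250 bases before to 50 after the annotated start, run 5′ to 3′ along the gene's strand, and were found for all 6 members. Capitals mark TGACG, the core of the cyclic AMP response element, read on both strands. The Sphkap window lies at chr9:92105576-92105875 (minus strand), the Vwa5b1 window at chr5:156135750-156136049 (minus strand) and the Cux2 window at chr12:40179032-40179331 (plus strand).
Sphkap: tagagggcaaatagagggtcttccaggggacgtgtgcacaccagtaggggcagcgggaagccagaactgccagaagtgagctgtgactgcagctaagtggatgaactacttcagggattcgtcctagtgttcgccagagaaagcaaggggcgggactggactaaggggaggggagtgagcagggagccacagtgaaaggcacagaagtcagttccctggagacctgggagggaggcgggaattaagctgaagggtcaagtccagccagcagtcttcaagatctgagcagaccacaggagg
Vwa5b1: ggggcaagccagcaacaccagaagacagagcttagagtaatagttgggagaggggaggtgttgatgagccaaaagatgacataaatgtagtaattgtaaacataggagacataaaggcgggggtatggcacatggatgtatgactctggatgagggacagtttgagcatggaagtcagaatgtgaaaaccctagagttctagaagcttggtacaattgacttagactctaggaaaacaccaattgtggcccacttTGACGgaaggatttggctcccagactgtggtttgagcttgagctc
Cux2: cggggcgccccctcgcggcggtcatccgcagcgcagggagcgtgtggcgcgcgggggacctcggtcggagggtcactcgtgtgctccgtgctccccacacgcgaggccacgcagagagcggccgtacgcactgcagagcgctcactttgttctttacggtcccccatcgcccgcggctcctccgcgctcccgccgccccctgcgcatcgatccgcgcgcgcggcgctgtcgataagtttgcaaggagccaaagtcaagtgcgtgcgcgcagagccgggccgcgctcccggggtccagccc

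The Cux2 window was 73% G and C with 46 CpG pairs, a GC content above that of 95.1% of the 33469 windows in the table. The Sphkap window was 57% and the Vwa5b1 window 46% G and C, around the median of 51.7%. Of the 6 windows, those of Vwa5b1 and Zfp804b each held 1 TGACG, a run of letters found in 21.2% of all windows. None of the 6 held the full element TGACGTCA, which contains TGACG and was in 1.83% of windows, or the AP-1 element TGACTCA, which was in 4.63%. A match or its absence describes these letters only.

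**Figure D1:**
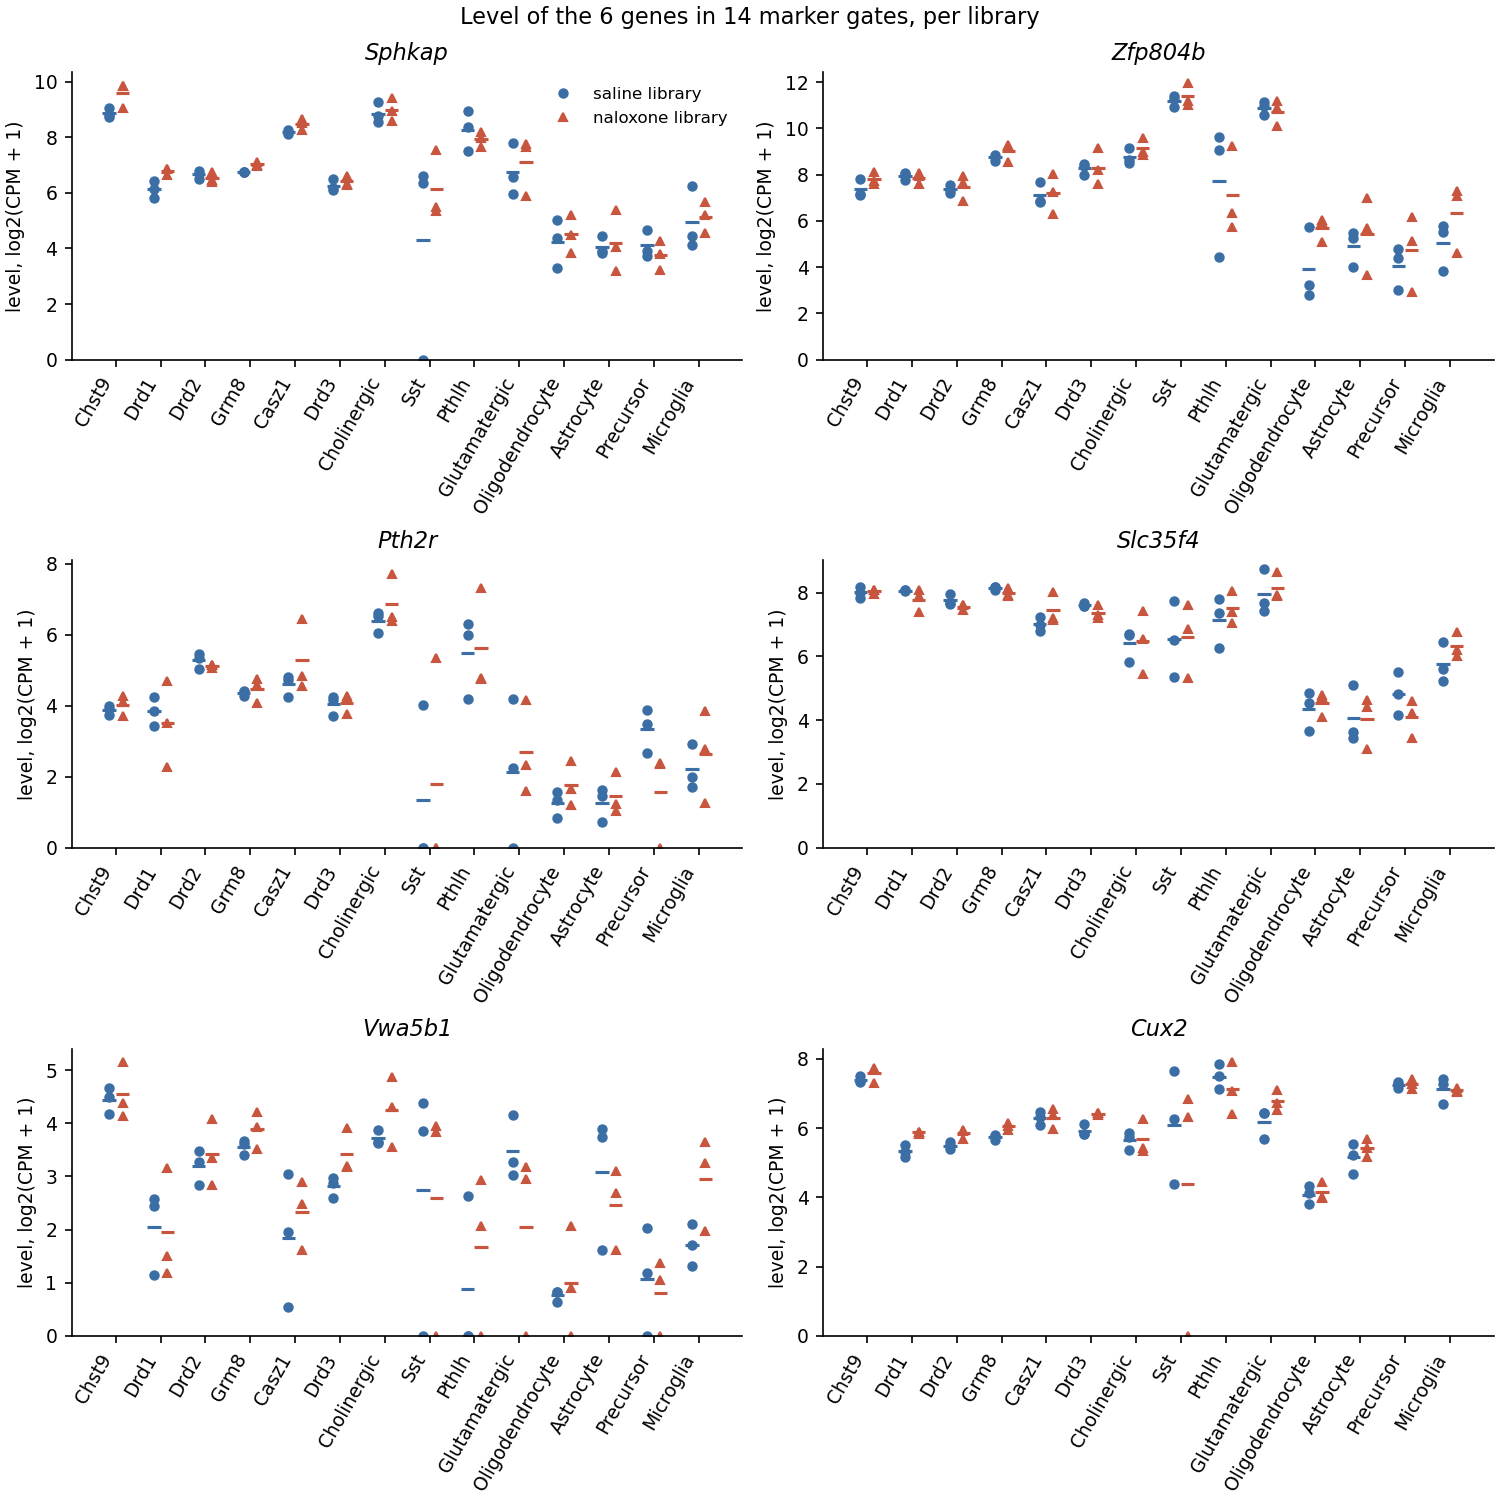
Level of each gene as log2(CPM + 1) on the y axis, by gate on the x axis, with 1 point per library (saline blue, naloxone orange) and a bar at the mean of each group. Sphkap, Vwa5b1 and Cux2 sit high in the Chst9 gate, while Zfp804b reaches its highest levels in the Sst and glutamatergic gates and Pth2r in the cholinergic gate.

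None of the 6 genes was restricted to the Chst9 gate. Over all gated nuclei Sphkap, the anchoring protein gene, was as high in the cholinergic gate (471 ± 123 CPM, SD, n = 3) as in the Chst9 gate, and the libraries of those gates overlapped. The Pthlh gate (334 ± 158 CPM) and the Casz1 gate (289 ± 15.5 CPM) followed, each overlapping its neighbour in the order. Below them came a gap to the glutamatergic gate at 125 ± 84.9 CPM, whose libraries did not overlap those of the Casz1 gate. The Grm8 (107 ± 0.789 CPM), Drd2 (101 ± 9.91 CPM), Drd3 (75.4 ± 11.7 CPM), Drd1 and Sst gates (58.8 ± 51.6 CPM) held lower levels, and the 4 glial gates lay between 16.1 and 37.3 CPM.

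Cux2 had its highest saline mean in the Pthlh gate (182 ± 45.1 CPM), and the Chst9 gate came next with overlapping libraries. The order then left the GABA neurons: oligodendrocyte precursors held 152 ± 9.34 CPM, below every library of the Chst9 gate, and microglia held 143 ± 35.0 CPM. The Casz1 gate measured 78.3 ± 9.92 CPM, and the Drd3, Grm8, cholinergic, Drd2 and Drd1 gates lay between 39.5 and 60.3 CPM. Vwa5b1 was highest in the Chst9 gate, with no overlap with the cholinergic gate next in order (12.2 ± 1.23 CPM). It measured 10.8 ± 1.07 CPM in the Grm8 gate, 8.35 ± 2.02 CPM in the Drd2 gate and 0.705 ± 0.128 CPM in oligodendrocytes.

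Zfp804b, the zinc finger gene, stood apart from the other five in where it was high. Its saline mean was 2388 ± 404 CPM in the Sst gate and 1927 ± 387 CPM in the glutamatergic gate, whose libraries overlapped each other and no library of the next gate. The Pthlh, cholinergic and Grm8 gates were at 448, 439.7 and 430.1 CPM, and the Chst9 gate, at 169 ± 48.5 CPM, was the eighth of 14 gates, overlapping the Drd1 gate above and the Drd2 gate below. Pth2r, the Gs-coupled receptor gene, was highest in the cholinergic gate (84.1 ± 16.6 CPM), overlapping the Pthlh gate (52.5 ± 31.5 CPM), which overlapped the Drd2 gate (38.2 ± 5.59 CPM). In the Chst9 gate Pth2r measured 13.8 ± 1.21 CPM, close to the Drd1 gate at 13.7 ± 4.22 CPM, and the libraries overlapped. Slc35f4, the predicted transporter gene, was broadly neuronal. It measured 281 ± 12.3 CPM in the Grm8 gate, 266 ± 4.12 CPM in the Drd1 gate and 257 ± 30.1 CPM in the Chst9 gate, and each of its neighbouring gates in the order overlapped.

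The share of nuclei with a UMI of a gene gave the same division. On average over the 6 libraries, 93.1 ± 2.16% (SD) of Chst9-gated nuclei had a Sphkap UMI, against 38.8% in the Drd1 gate and 2.56% in oligodendrocytes, a cell type taken as the level of free RNA. Median depths were 6888 UMIs in the Chst9 gate, 12037 in the Drd1 gate and 1798 in oligodendrocytes. After random thinning of each nucleus to 1000 UMIs the Sphkap shares were 48.9%, 7.43% and 1.32%. Thinning dropped 1153 oligodendrocyte nuclei (10.9%) for being shallower, and none of the Chst9 gate. For Cux2 the thinned shares were 19.9% in the Chst9 gate, 4.02% in the Drd1 gate and 1.02% in oligodendrocytes, and unthinned 74.2%, 33.6% and 2.59%. Vwa5b1 had thinned shares of 2.87%, 0.589% and 0.0966% (unthinned 17.6%, 4.13% and 0.197%). The others did not differ in this way: the thinned shares in the Chst9 and Drd1 gates were 10.1% and 12.8% for Zfp804b, 1.29% and 0.993% for Pth2r, and 19.7% and 16.7% for Slc35f4. In oligodendrocytes these shares were 0.897%, 0.126% and 1.23%. The unthinned shares in the Chst9 gate, the Drd1 gate and oligodendrocytes were 27.6%, 31.0% and 1.63% for Zfp804b. They were 8.96%, 8.51% and 0.274% for Pth2r, and 53.5%, 59.5% and 2.27% for Slc35f4.

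Leaving out the nuclei with both Xist and Y-linked UMIs from both gates moved the ratio between the Chst9 and Drd1 gates to 9.95 for Sphkap, 6.65 for Cux2 and 10.5 for Vwa5b1. It was 1.09 for Slc35f4, 0.874 for Pth2r and 0.634 for Zfp804b, so the same 3 genes stood above the Drd1 gate. The order of the gates changed, among others for Sphkap and Cux2. Sphkap was then highest in the Chst9 gate at 702 ± 151 CPM (SD, n = 3), ahead of the cholinergic gate at 494 ± 123 CPM, and their libraries overlapped. Cux2 was then highest in the Chst9 gate at 237 ± 6.55 CPM, with no library overlapping those of the Pthlh gate at 182 ± 45.1 CPM. Vwa5b1 stayed highest in the Chst9 gate, at 28.9 ± 4.59 CPM. Slc35f4 measured 294 ± 35.5 CPM there and 294 ± 9.23 CPM in the Grm8 gate, and the libraries overlapped. In the Drd1 gate its mean was 269 CPM, then below the Chst9 gate. Pth2r, with means of 8.48 CPM in the Chst9 gate and 9.70 CPM in the Drd1 gate, was then lower in the Chst9 gate. Sphkap in the 671 nuclei with both measured 241, 196 and 174 CPM in the saline libraries and 196, 330.5 and 424 CPM in the naloxone libraries, below the rest of the gate in every library.

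Within Gad-positive nuclei, Sphkap and Cux2 were graded with the Chst9 count itself. In saline libraries the mean Sphkap level was 205 CPM in the 760 nuclei with 1 Chst9 UMI, just outside the gate, and 246 CPM in the 407 nuclei with 2 UMIs, just inside. It was 321, 381, 479.5, 602 and 833 CPM in nuclei with 3, 4 to 5, 6 to 9, 10 to 19 and at least 20 Chst9 UMIs. In naloxone libraries the same bins held 268, 387, 533, 586, 792, 982 and 1111 CPM. The naloxone mean was the higher in all 7 bins, and the 6 libraries overlapped in some of them. Cux2 had saline means of 73.2, 93.3, 121, 131, 161, 218 and 277 CPM in the 7 bins and naloxone means of 99.0, 95.8, 130.0, 166, 203, 232 and 252 CPM. Drd2, the marker of indirect-pathway spiny neurons, went the other way, from 117 CPM at 1 Chst9 UMI to 4.03 CPM at 20 or more in the saline libraries. Slc35f4 was higher at high Chst9 counts (387 CPM at 20 or more UMIs against 201 CPM at 2 UMIs in saline), Vwa5b1 likewise (32.1 against 15.3 CPM), and Zfp804b was lower (95.3 against 236 CPM). Neither depth nor make-up of the nuclei was matched between bins. Across single nuclei the correlation of Sphkap with Chst9 was weak (Pearson r of 0.16 to 0.28 within the 6 libraries) and is given as a description.

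**Figure D2:**
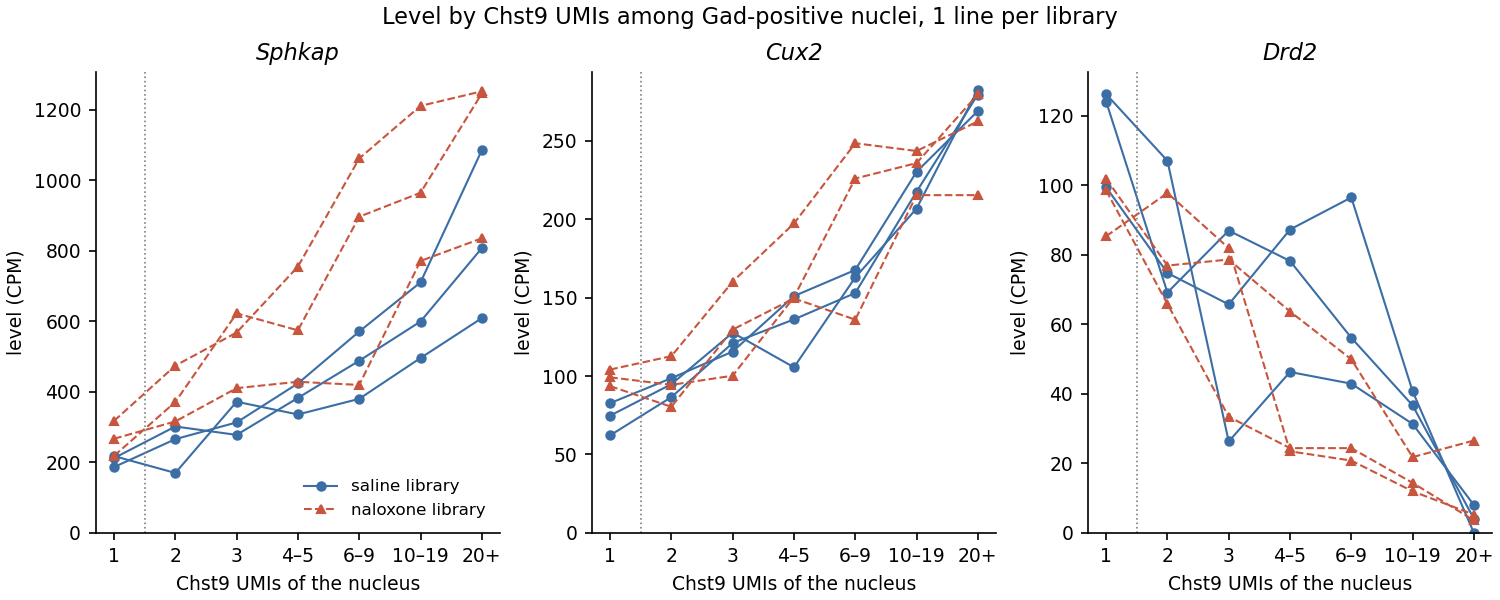
Level in CPM of Sphkap, Cux2 and Drd2 in Gad-positive nuclei split by their Chst9 UMIs on the x axis, with 1 line per library (saline blue, naloxone orange) and a dotted line at the edge of the gate. Sphkap and Cux2 are higher and Drd2 lower toward the right, and naloxone replicate 4 runs near the saline lines for Sphkap.

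The naloxone comparison in the Chst9 gate asked whether an opioid antagonist given after heroin intake changes these genes within 1 hour. Sphkap measured 536, 440.4 and 428 CPM in saline replicates 1, 2 and 3 and 534, 919.6 and 909 CPM in naloxone replicates 4, 5 and 6. Naloxone replicates 5 and 6 were the highest libraries, and replicate 4 lay within the saline range. The means were 468 ± 59.2 CPM with saline and 788 ± 219 CPM with naloxone (SD, n = 3 each), a log2 change of 0.76 (SE 0.19), larger than that of 99.2% of the 12950 genes in the fit. No gene of the gate passed the adjusted threshold of 0.05 in edgeR's quasi-likelihood test with Benjamini-Hochberg adjustment (0% called, none of the 6 members). At an unadjusted p under 0.05 there were 1043 genes, and DESeq2 called 16. Without naloxone replicate 4, 170 genes were called and the log2 change of Sphkap was 0.98 (SE 0.11). Sphkap was among those calls, which were 1.30% of the 13126 genes then tested. It was also called with no low-count filter, where 0.198% of 20225 genes were called. The same held without nuclei holding UMIs of other-class genes, where 0.0716% of 11166 genes were called. In the gate's libraries 6.16% of the 8699 genes of at least 10 CPM had all naloxone libraries above all saline libraries, and none of the 6 members was among them. The members were picked on this contrast, so they carry no p here and their calls are a description. Over all nuclei and libraries of the gate no gene of the fit was called, so these calls do not set the 6 members apart from other genes. The alternatives named here call Sphkap alone of the 6.

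The remaining 5 genes had smaller log2 changes in the gate. Zfp804b measured 139.8, 143 and 225 CPM in saline replicates 1, 2 and 3 and 208, 274 and 195 CPM in naloxone replicates 4, 5 and 6, and saline replicate 3 was above naloxone replicates 4 and 6. Its log2 change was 0.42 (SE 0.18), or 0.68 (SE 0.13) without that saline library. Cux2 measured 161, 163 and 182 CPM in saline replicates 1, 2 and 3 and 158, 209.9 and 213 CPM in naloxone replicates 4, 5 and 6, with naloxone replicate 4 the lowest of all 6 and a log2 change of 0.21 (SE 0.12). That change was 0.35 (SE 0.09) without naloxone replicate 4 and 0.11 (SE 0.12) without naloxone replicate 6. Pth2r, a sparse gene with 53 to 109 UMIs per library, measured 12.4, 14.8 and 14.0 CPM in saline replicates 1, 2 and 3 and 16.1, 12.1 and 18.5 CPM in naloxone replicates 4, 5 and 6. Its groups overlapped, with a log2 change of 0.20 (SE 0.18) that was 0.36 (SE 0.15) without naloxone replicate 5 and 0.05 (SE 0.19) without naloxone replicate 6. Vwa5b1 measured 17.1, 24.4 and 21.4 CPM in saline replicates 1, 2 and 3 and 16.6, 19.9 and 34.4 CPM in naloxone replicates 4, 5 and 6, where naloxone replicate 6 alone stood above the saline libraries, and the log2 change was 0.18 (SE 0.26), or -0.23 (SE 0.18) without that library. Slc35f4 measured 228, 255 and 288 CPM in saline replicates 1, 2 and 3 and 248, 270.3 and 268 CPM in naloxone replicates 4, 5 and 6, an overlap throughout, with a log2 change of 0.04 (SE 0.09) that ranged from -0.03 to 0.13 with a library left out, negative without saline replicate 1 only. Over all genes of the fit the median log2 change was 0.00.

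**Figure D3:**
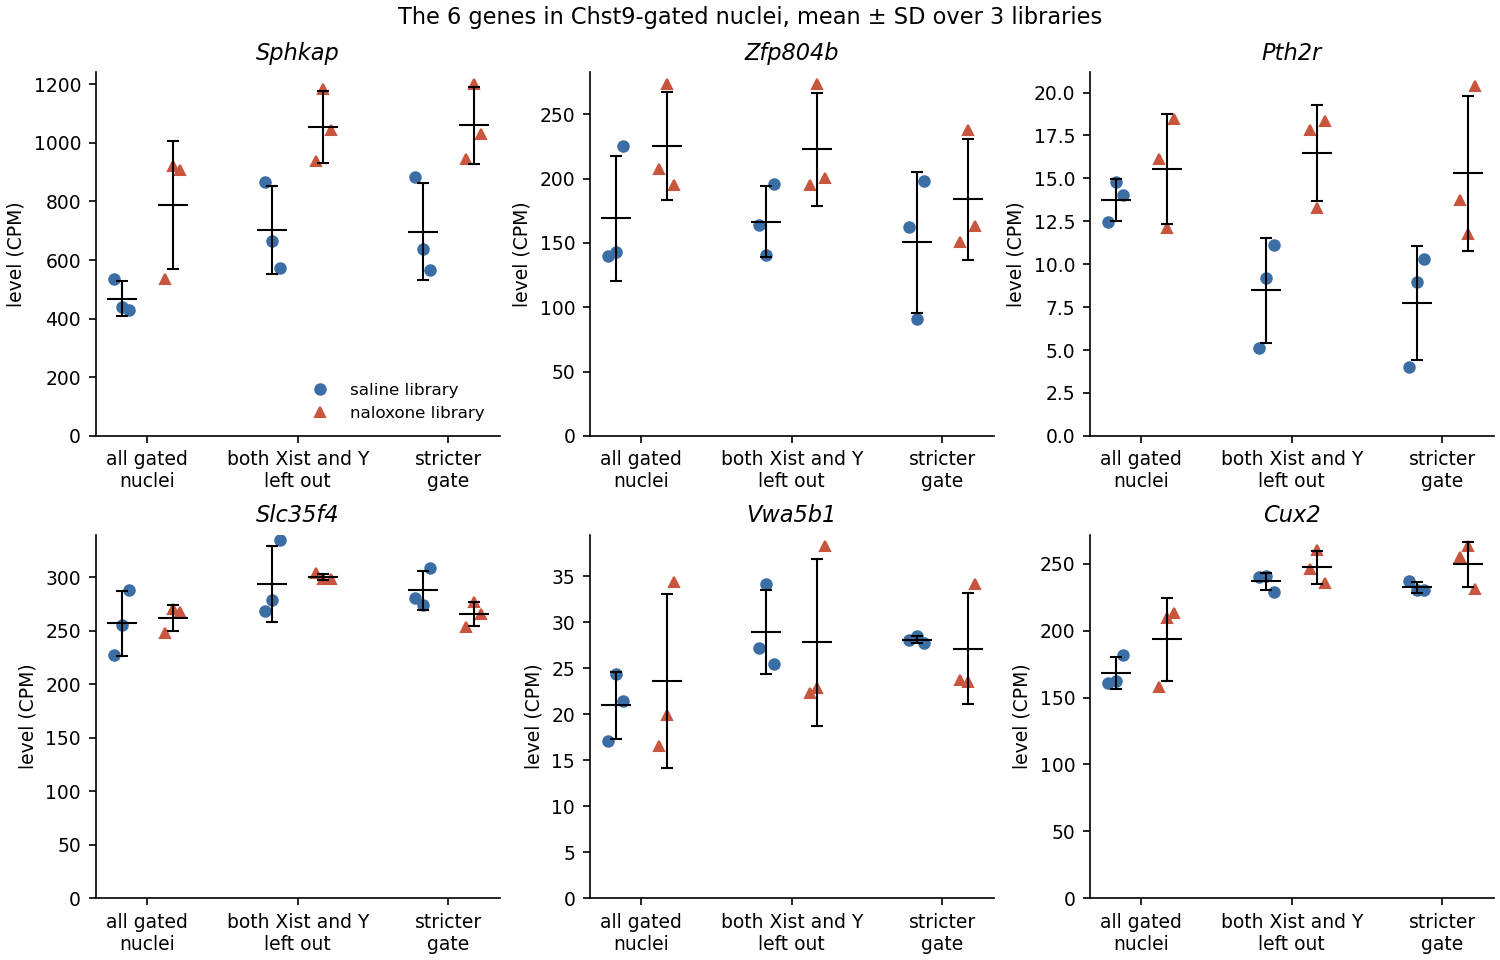
Level of each gene in CPM in the Chst9 gate, saline and naloxone libraries side by side, for all nuclei of the gate and without nuclei holding both Xist and Y-linked UMIs, with 1 point per library and a bar at the mean. With those nuclei left out the 3 naloxone libraries lie above the 3 saline libraries for Sphkap and Pth2r, and the groups overlap for the 4 other genes.

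Without the nuclei holding both Xist and Y-linked UMIs, the gate held 4.87 ± 0.362% of saline nuclei and 4.93 ± 0.369% of naloxone nuclei, and Sphkap and Pth2r separated the groups. Sphkap measured 868, 666 and 572 CPM in saline replicates 1, 2 and 3 and 938, 1184 and 1043 CPM in naloxone replicates 4, 5 and 6. All 3 naloxone libraries were then above all 3 saline libraries, with a log2 change of 0.60 (SE 0.12), smaller than with all nuclei and with a smaller error. Pth2r measured 5.12, 9.20 and 11.1 CPM in saline replicates 1, 2 and 3 and 17.8, 13.3 and 18.4 CPM in naloxone replicates 4, 5 and 6, a log2 change of 0.94 (SE 0.25) from 13 to 81 UMIs per library. Naloxone libraries that were all above the saline libraries were found for 5.91% of the 8499 genes of at least 10 CPM. Of 11407 genes tested, 21 (0.184%) were called by edgeR's quasi-likelihood test, 13 higher and 8 lower, among them 1 of the 6 members, Sphkap. Since the members were chosen on this contrast, that count is a description. Zfp804b measured 164, 141 and 196 CPM in saline replicates 1, 2 and 3 and 195, 273 and 200.3 CPM in naloxone replicates 4, 5 and 6 , where saline replicate 3 still lay above naloxone replicate 4. Its log2 change was 0.43 (SE 0.12). Cux2 came to 240.4, 241 and 229 CPM in the saline libraries and 246, 260.2 and 236 CPM in the naloxone libraries, and its log2 change of 0.08 (SE 0.07) was smaller than with all nuclei. The log2 changes of Slc35f4 and Vwa5b1 were 0.04 (SE 0.09) and 0.00 (SE 0.19).

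With these nuclei left out, the markers of the gate had these ranges over the 6 libraries: Chst9 itself lay between 1505 and 1655 CPM, Oprm1 between 242 and 294 CPM and Foxp2 between 3431 and 3788 CPM. With all nuclei, Foxp2 measured 2303, 2353 and 2728 CPM in saline replicates 1 to 3 and 2340, 2855 and 3290 CPM in naloxone replicates 4 to 6. It was highest in naloxone replicate 6, where Sphkap was also high. Drd2 in the whole gate measured 65.7, 61.1 and 40.0 CPM with saline and 48.3, 36.2 and 19.9 CPM with naloxone, lowest in naloxone replicate 6. In a stricter gate of at least 3 Chst9 UMIs, an Oprm1 UMI and no Drd2 UMI, Sphkap measured 883, 639 and 567 CPM in the saline libraries and 946, 1201 and 1031 CPM in the naloxone libraries. Foxp2 there measured 3525, 3389 and 3563 CPM in the saline libraries and 3849, 3575 and 3794 CPM in the naloxone libraries, without overlap. The groups overlapped for Chst9 and Oprm1. The part that the make-up of the gate plays in the changes over all its nuclei was not tested beyond these alternatives.

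The same contrast was fitted in 10 other gates. The choice of the members set the Chst9 gate against the other neuron gates, so their values in the 6 neuron gates are a description with no p. Calls of members in these neuron gates, also those under an alternative given below, are a description too. Only the 4 glial gates give a test. None of the 6 genes was called in any of the 10 gates by edgeR's quasi-likelihood test with Benjamini-Hochberg adjustment. The share of all genes called was 0% in the Drd1, Drd3 and cholinergic gates, 0.130% in the Drd2 gate, 0.00685% in the Grm8 gate and 0.221% in the Casz1 gate. It was 0.207% in oligodendrocytes, 0.0930% in astrocytes, 0.0935% in precursors and 0.0258% in microglia. In the 3 gates without a call, 564, 1292 and 416 genes had an unadjusted p under 0.05, and DESeq2 called 1, 46 and 0. Without naloxone replicate 5, 348 genes were called in the Drd2 gate, 592 in the Grm8 gate, 229 in the Casz1 gate and 83 in the Drd3 gate. All 6 members passed the low-count filter in the Drd2, Grm8, Drd3 and cholinergic gates. Vwa5b1 did not pass in the Drd1 and Casz1 gates, Pth2r in none of the 4 glial gates, and Vwa5b1 in the glial gates only in astrocytes.

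Sphkap was higher in every naloxone library than in every saline library of the Drd1, Grm8 and Casz1 gates, although it was called in none of them. In the Drd1 gate it measured 55.5, 70.1 and 84.8 CPM in the saline libraries and 115, 99.0 and 114 CPM in the naloxone libraries, a log2 change of 0.62 (SE 0.16). In the Grm8 gate it measured 108, 106 and 107 CPM in the saline libraries and 128, 138 and 123 CPM in the naloxone libraries, with a log2 change of 0.28 (SE 0.06) and a call only without naloxone replicate 5. In the Casz1 gate it measured 304, 273 and 289.8 CPM in the saline libraries and 307, 401 and 361 CPM in the naloxone libraries, with a log2 change of 0.32 (SE 0.12) that was 0.14 (SE 0.14) without the nuclei holding both Xist and Y-linked UMIs. In the Drd2 gate the log2 change over all nuclei was -0.10 (SE 0.11). The share of all genes of at least 10 CPM whose naloxone libraries were all higher was 5.30% in the Drd1 gate, 9.98% in the Grm8 gate and 7.50% in the Casz1 gate. Over all 58710 nuclei, Sphkap measured 151, 135 and 129 CPM in the saline libraries and 167, 194 and 174 CPM in the naloxone libraries.

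The change of Sphkap in the Chst9 gate exceeded that in the Drd2 gate by 0.84 (SE 0.15) on the log2 scale and that in the Grm8 gate by 0.45 (SE 0.17). It exceeded that in the Drd1 gate by 0.18 (SE 0.21), less than its standard error. Without the nuclei holding both Xist and Y-linked UMIs the order of the Chst9 and Drd1 gates turned, with changes of 0.60 (SE 0.12) and 0.65 (SE 0.17), while the Drd2 and Grm8 gates had -0.17 (SE 0.12) and 0.27 (SE 0.06). These differences use the contrast that chose the gene and carry no p.

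Cux2 showed the same order in 4 gates. It measured 56.4, 55.7 and 68.9 CPM in the saline libraries and 86.4, 84.9 and 82.0 CPM in the naloxone libraries in the Drd3 gate, a log2 change of 0.47 (SE 0.09) that DESeq2 called and edgeR's quasi-likelihood test did not. In the Drd2 gate it measured 41.4, 44.3 and 47.2 CPM in the saline libraries and 50.8, 60.5 and 59.0 CPM in the naloxone libraries, a log2 change of 0.37 (SE 0.09). In the Grm8 gate it measured 49.9, 53.7 and 55.1 CPM in the saline libraries and 61.3, 70.0 and 65.9 CPM in the naloxone libraries, a log2 change of 0.31 (SE 0.07). The groups stood apart in each. In the Drd1 gate Cux2 measured 38.7, 35.1 and 44.8 CPM in the saline libraries and 56.3, 58.3 and 58.6 CPM in the naloxone libraries, a log2 change of 0.52 (SE 0.15). Without the nuclei holding both Xist and Y-linked UMIs the log2 changes of Cux2 were 0.47 (SE 0.09) in the Drd3 gate, 0.40 (SE 0.10) in the Drd2 gate, 0.29 (SE 0.08) in the Grm8 gate and 0.64 (SE 0.18) in the Drd1 gate. All naloxone libraries were above all saline libraries in these 4 gates, as were 8.35% of genes of at least 10 CPM in the Drd3 gate and 8.38% in the Drd2 gate. Over all nuclei Cux2 measured 63.7, 68.0 and 68.5 CPM in the saline libraries and 76.9, 80.5 and 79.8 CPM in the naloxone libraries. Without naloxone replicate 5 Cux2 was called in the Drd3 and Grm8 gates, which is a description because the choice of members compared these gates. The 4 gates share libraries, and their nuclei overlap, so they are not 4 separate observations. In the Casz1 and cholinergic gates the log2 changes of Cux2 were 0.06 (SE 0.16) and 0.03 (SE 0.26).

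**Figure D4:**
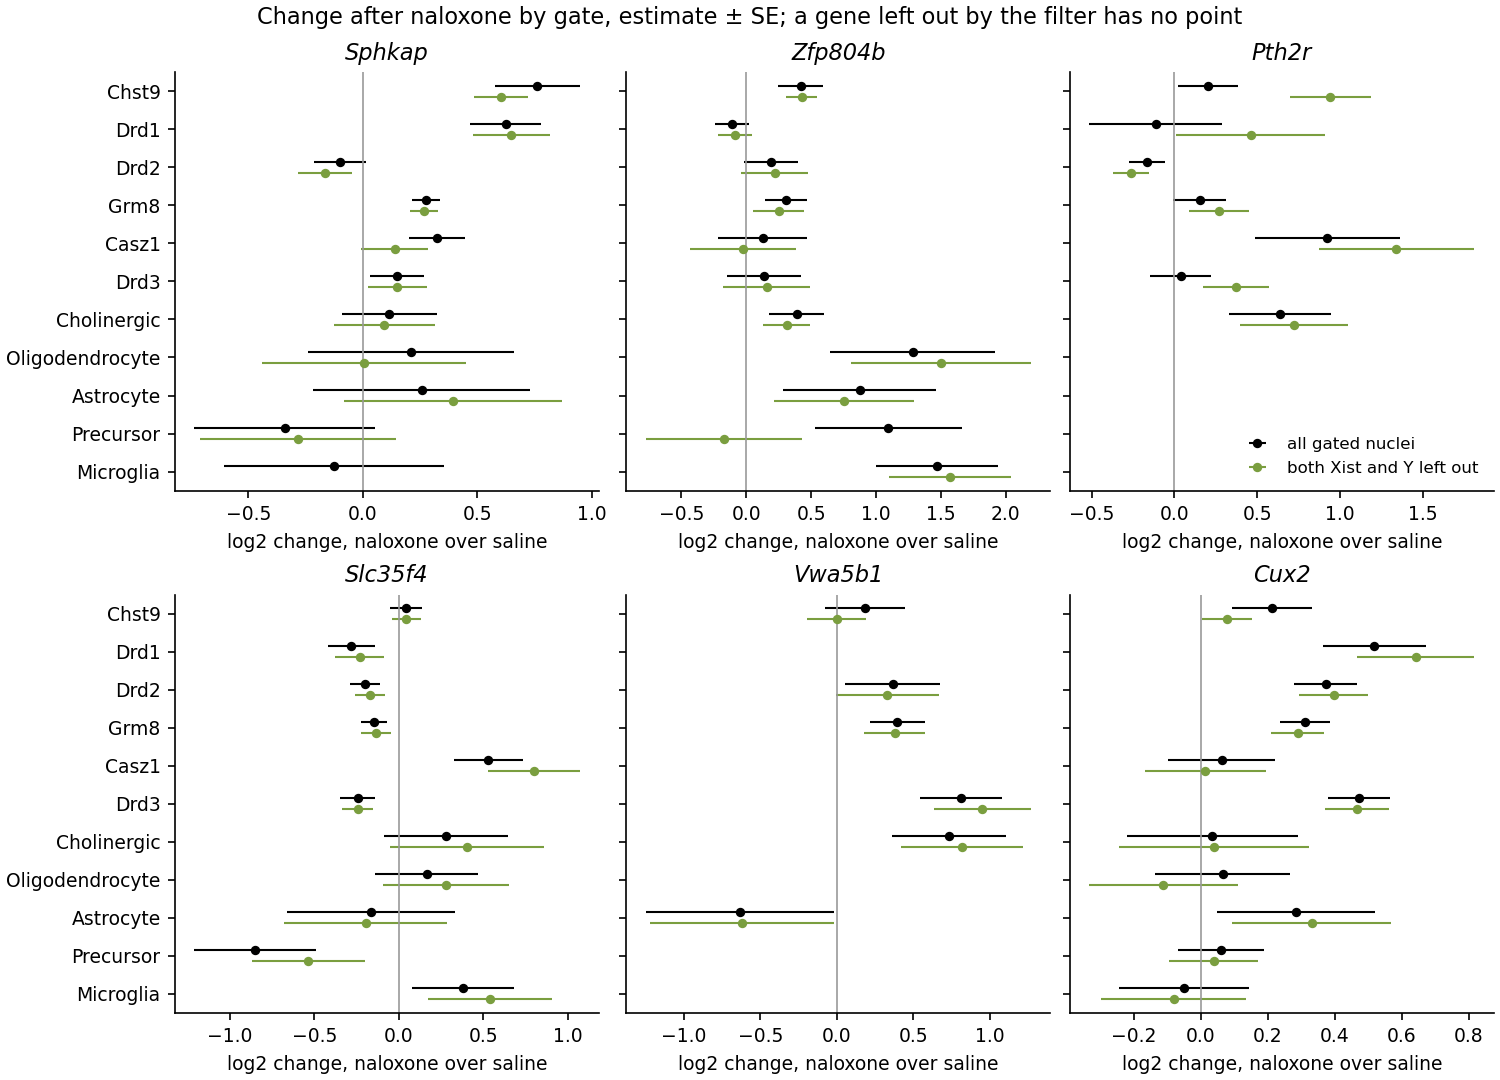
Log2 change after naloxone (x axis) of each gene in each tested gate (y axis), with points for the fitted change over all gated nuclei (black) and without nuclei holding both Xist and Y-linked UMIs (green), bars of 1 standard error and a line at 0. Sphkap is farthest to the right in the Chst9 gate at 0.76 among the black points and in the Drd1 gate at 0.65 among the green ones, and Cux2 lies right of 0 in the Drd1, Drd2, Grm8 and Drd3 gates.

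Each of the other four genes had log2 changes of both signs across gates. Slc35f4 was lower with naloxone in the Drd2 gate, at 199, 246 and 203 CPM in the saline libraries and 193, 193 and 173 CPM in the naloxone libraries, a log2 change of -0.20 (SE 0.09). Its groups did not overlap there, which held for 12.8% of genes of at least 10 CPM in the lower direction. In the Drd3 gate its log2 change was -0.24 (SE 0.10), and it was called there only without naloxone replicate 5. It was 0.53 (SE 0.21) in the Casz1 gate, the opposite sign. There naloxone replicate 4 alone reached 255 CPM, and naloxone replicates 5 and 6 lay within the saline range. With a library left out the change in the Casz1 gate ranged from 0.20 to 0.67. Vwa5b1 measured 6.32, 6.79 and 5.07 CPM in the saline libraries and 8.04, 8.10 and 14.1 CPM in the naloxone libraries in the Drd3 gate, without overlap and with a log2 change of 0.81 (SE 0.27). Pth2r had its largest change in the Casz1 gate, 0.92 (SE 0.44), where naloxone replicate 4 alone reached 85.8 CPM. In the cholinergic gate, where Pth2r was highest at baseline, the log2 change was 0.64 (SE 0.31), and naloxone replicate 6 alone reached 207 CPM.

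Zfp804b had positive changes in all glial gates, where its levels were low. The log2 change was 1.47 (SE 0.47, adjusted p = 0.472) in microglia, 1.28 (SE 0.63, adjusted p = 0.608) in oligodendrocytes, 1.09 (SE 0.57, adjusted p = 0.689) in precursors and 0.87 (SE 0.59, adjusted p = 0.792) in astrocytes. In precursors it was -0.17 (SE 0.60) without the nuclei holding both Xist and Y-linked UMIs. In microglia it measured 13.2, 54.1 and 44.9 CPM in the saline libraries and 155, 23.3 and 136 CPM in the naloxone libraries, and in oligodendrocytes 5.87, 51.6 and 8.34 CPM in the saline libraries and 65.2, 32.6 and 60.2 CPM in the naloxone libraries. Over all nuclei of a library it measured 346, 289 and 326 CPM in the saline libraries and 488, 287 and 383 CPM in the naloxone libraries, highest in naloxone replicate 4. Whether free RNA of the neurons that hold this gene at high levels contributes to the glial values was not tested. Without naloxone replicate 5, Zfp804b passed in the microglia gate, with a log2 change of 1.84 (SE 0.30, adjusted p = 0.0234) by edgeR's quasi-likelihood test. There 0.0825% of 8486 genes were called. Without saline replicate 2 it passed in oligodendrocytes, with a log2 change of 2.82 (SE 0.36, adjusted p = 0.0483 by the same test), where 0.105% of 12410 genes were called. The library left out was the lowest naloxone library in microglia and the highest saline library in oligodendrocytes. With no low-count filter Zfp804b passed in microglia (adjusted p = 2.93e-05 by the same test), where 0.426% of 17142 genes were called. In the neuron gates its log2 change was -0.11 (SE 0.13) for Drd1, 0.19 (SE 0.21) for Drd2, 0.30 (SE 0.16) for Grm8, 0.13 (SE 0.34) for Casz1, 0.14 (SE 0.28) for Drd3 and 0.39 (SE 0.21) for the cholinergic gate. Without naloxone replicate 5 it was 0.44 (SE 0.09) in the Drd2 gate and 0.50 (SE 0.07) in the Grm8 gate. The gene was then called in both, which is a description because the choice of members compared the neuron gates.

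Since each library pooled male and female tissue, male and female nuclei of the Chst9 gate could be compared within a library. Nuclei were assigned by Xist against 4 genes of the Y chromosome, which gave 1446 female and 1180 male nuclei and left 889 unassigned, 671 of them with both. Sphkap measured 958, 648 and 437 CPM in saline replicates 1, 2 and 3 and 1067, 1045 and 1006 CPM in naloxone replicates 4, 5 and 6 in female nuclei. In male nuclei it measured 673, 676 and 731 CPM in saline replicates 1, 2 and 3 and 771, 1311 and 1075 CPM in naloxone replicates 4, 5 and 6. Male nuclei were higher in 4 of 6 libraries, and the log2 difference, male over female with library as a block, was 0.06 (SE 0.11, adjusted p = 0.993 by edgeR's quasi-likelihood test). Of 10688 genes, 22 (0.206%) were called, 6 higher in male and 16 higher in female nuclei, with Xist, Uty, Kdm5d and Ddx3y among them. None of the 6 members was. Their log2 differences were -0.00 for Zfp804b, 0.13 for Pth2r, 0.24 for Slc35f4, 0.27 for Vwa5b1 and 0.10 for Cux2. Slc35f4 (SE 0.12) and Vwa5b1 (SE 0.13) had the largest, at adjusted p = 0.857 and 0.848.

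**Figure D5:**
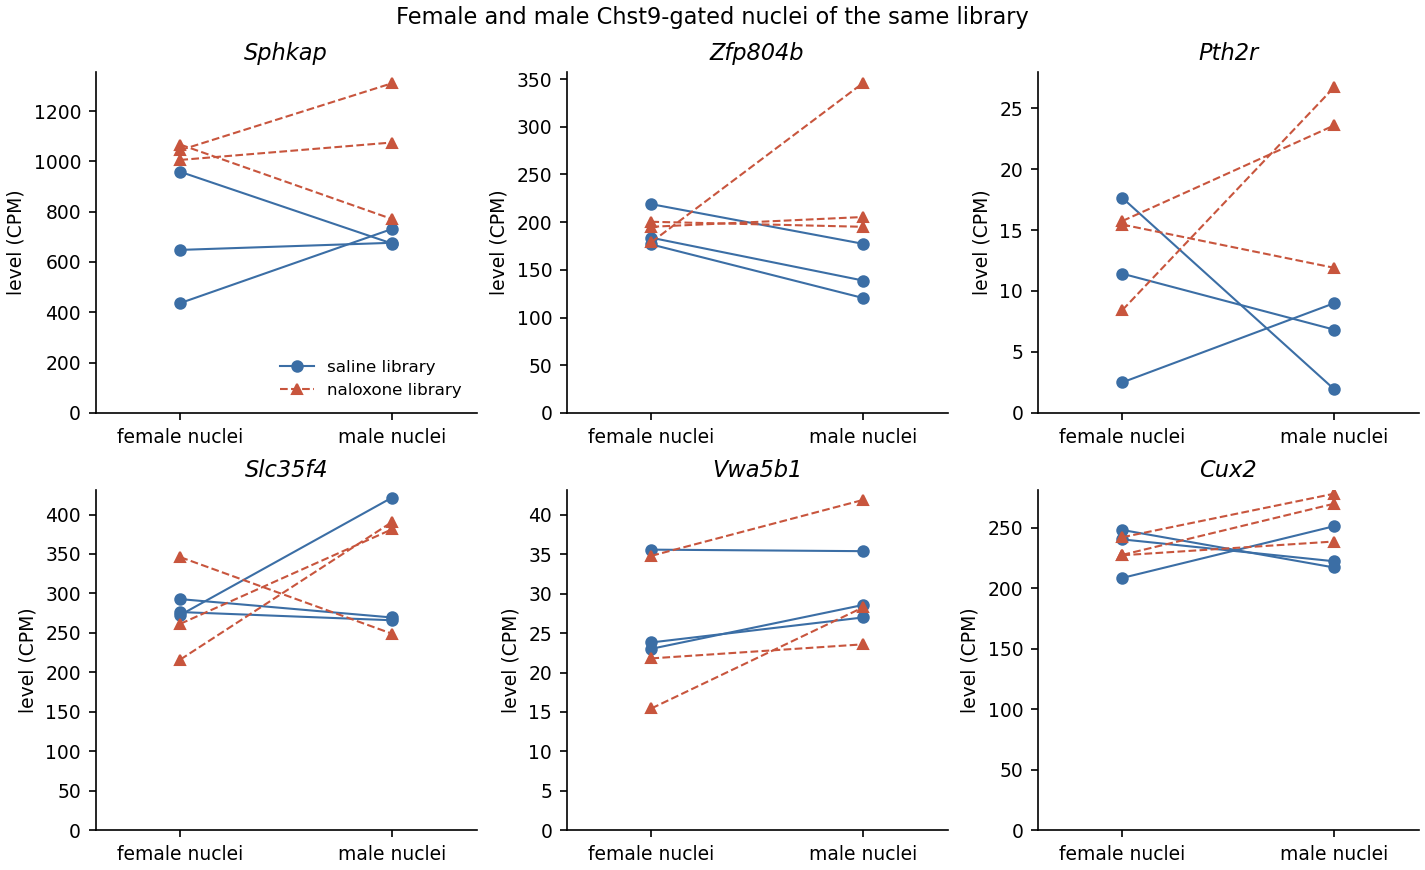
Level of each gene in CPM in female and male nuclei of the Chst9 gate, with a line joining the nuclei of the same library (saline blue, naloxone orange). Sphkap is higher in male nuclei in 4 of 6 libraries, and for Cux2 and Vwa5b1 the 3 naloxone lines run up from female to male nuclei.

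The sex by naloxone term, which asks whether the change differed between male and female nuclei, called no gene (0% of 10688, with 476 at an unadjusted p under 0.05). For Zfp804b the male change exceeded the female change by 0.74 on the log2 scale (SE 0.20, adjusted p = 0.860 by edgeR's quasi-likelihood test). Its male nuclei measured 139, 120.5 and 177 CPM in saline replicates 1, 2 and 3 and 195, 346 and 205 CPM in naloxone replicates 4, 5 and 6, with naloxone replicate 5 the highest, and its female nuclei stayed between 177 and 219 CPM in all 6 libraries. For Sphkap the term was -0.12 (SE 0.22). For Pth2r it was 1.78 (SE 0.67), for a gene whose level in these sums ranged from 1.95 to 26.7 CPM.

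Other genes of these pathways were read from 6 lists, of which no gene was called in the Chst9 gate. Of the AKAP and PKA list, 20 of 24 genes were tested and 10 had a positive change, with a median log2 change of 0.00, the same as over all genes. Of the sphingosine list, which holds the kinases, receptors and ceramide synthases, 13 of 18 were tested, 8 were positive, and the median was 0.06. Of the parathyroid hormone list, 6 of 9 were tested with a median of 0.18, and Gnal, the olfactory-type stimulatory G protein subunit that couples striatal receptors to cyclic AMP, had a log2 change of -0.26 (526 CPM with saline, 435 CPM with naloxone) at an unadjusted p under 0.05. Of the paralogs of the 6 genes, 7 of 10 were tested, 4 were positive, and the median was 0.03. Of the upper-layer cortical list, 3 of 10 were tested, with a median of -0.03 and none positive. The glutamatergic markers of the cortex summed to at most 3.10 CPM in a library of the gate, beside 158 to 213 CPM of Cux2. Of the activity list, 5 of 12 were tested, with a median of -0.17 and 2 positive.

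Genes whose saline levels followed those of a member most closely over the 14 gates were taken from 12242 genes with at least 10 CPM in a gate. For Sphkap the closest named genes were Phf6 (Pearson r = 0.94 over 14 gates) and Lmbr1 (0.89). For Zfp804b they were Pi4ka (0.96) and Fstl5 (0.96), and for Slc35f4 Dlgap2 (0.96), Dmtn (0.95) and Grin1 (0.95). Vwa5b1 was closest to Wdr35 (0.87) and Catsperg (0.86), Cux2 to Arhgef6 (0.88) and Gas6 (0.85), and Pth2r to AABR07021636.1 (0.92) and Smokl8 (0.89). No member was among the 3 closest genes of another. Between members the highest value was 0.80, for Sphkap and Pth2r, and Vwa5b1 and Cux2, both high in the Chst9 gate, had -0.02. The gates share libraries and some nuclei, and the small gates are noisy, so these values describe the pattern only.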

How the data were processed

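The deposited values are UMI counts per gene and barcode, with no normalization, made with Cell Ranger 9.0.1 per the file headers; the submitters' processing notes also name Seurat 5.2.1, R 4.4.0 and the build mRatBN7.2. The labels speak of 44592 nuclei and about 23000 read pairs per nucleus. The 6 files hold 64260 barcodes, so the authors' selection of nuclei was not followed. The filter kept 61609 barcodes (500 or more genes, no more than 5% mitochondrial UMIs), and 2899 doublets (4.71%) called from simulated pairs of nuclei were removed, which left 58710. UMIs were summed per gate and library and tested with edgeR 4.0.16 (quasi-likelihood test, TMM factors, default low-count filter, Benjamini-Hochberg adjustment over all genes of a fit, threshold 0.05, no covariate). Gates with under 20 nuclei in a library were not tested, and no p is printed for a member in a neuron gate, since the choice of members compared these gates. Log2 changes are naloxone over saline, and baseline ratios are of CPM, with log2(CPM + 1) for the background. DESeq2 1.42.0 was an alternative. Scripts used R 4.3.3, Python 3.11.15, numpy 2.4.6, pandas 2.3.3 and scipy 1.17.1, and the fits were tested on simulated data.

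The members, gene lists and gates were chosen with earlier results of these data known. All 6 members are named for baseline levels, shares of nuclei, naloxone changes in the Chst9 gate and differences between sexes. Differences of the change between gates are given for Sphkap only, and the sex by naloxone term for some members. Of the 3 closest genes of each member by correlation over the gates, not all are named. Alternatives covered scaling, the low-count filter, DESeq2, each library left out, the filters on nuclei and the gate. Those without nuclei holding both Xist and Y-linked UMIs, with at least 10 Chst9 UMIs, and with at least 3 Chst9 UMIs plus Oprm1 and no Drd2 were chosen after seeing the data. Libraries are pools of rats, so p-values measure the spread between pools. Libraries of a group differed by more than sampling noise (chi-square divided by its degrees of freedom, 2.45 to 7.31), so none was counted as a repeat. The intervals of counting error are not given, since the spread between libraries was the larger. Chat, Slc18a3, Tac1, Pth2, Junb and Akap2 are not analysed here.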

Additional observations from a re-analysis of the deposited data

How the results depend on the processing

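Of the log2 changes of the 6 members in the Chst9 gate, 108 of 114 values under the alternatives stayed within the spread of the libraries, and of the baseline ratios to the Drd1 gate 70 of 90 did. Within the spread means a shift of less than 1 SD between libraries, whatever the sign. A change of sign could therefore count as within it, as for Vwa5b1 (0.18, and -0.23 without naloxone replicate 6). Without nuclei holding both Xist and Y-linked UMIs, the log2 change of Pth2r was 0.94, and it was 1.22 with the gate set at a fixed depth, 1.15 without nuclei holding UMIs of other-class genes, 0.99 in the strict gate (at least 3 Chst9 UMIs, Oprm1 and no Drd2) and 0.73 with at least 10 Chst9 UMIs. Slc35f4 had -0.10 in the strict gate. The number of genes called in the Chst9 gate, 0 as reported, was 40 with no low-count filter, 16 with DESeq2, 21 without the nuclei holding both, 8 without other-class UMIs, 1 in the strict gate, 1 with at least 10 Chst9 UMIs, and 0 to 170 with a library left out. In the Drd1 gate it was 38 with no filter, 1 with DESeq2, 1 without the nuclei holding both, and 0 to 1 with a library left out. In the Drd2 gate 18 became 124 with no filter, 117 with DESeq2 and 0 to 348 with a library left out. The count between sexes, 22, was 9 with DESeq2, 66 with no filter, 14 with at least 3 Chst9 UMIs, 9 with treatment in place of the library block, and 10 to 31 with a library left out. The difference of Zfp804b between sexes, -0.0038, turned to 0.015 with at least 3 Chst9 UMIs, 0.065 with a Grm8 UMI, 0.074 with at least 2 sex-linked UMIs and 0.0092 with treatment in place of the block, and ranged from -0.22 to 0.10 with a library left out. The same range was -0.079 to 0.16 for Sphkap and -0.37 to 0.57 for Pth2r. The share of nuclei in the gate, -0.31 percentage points with naloxone, was 0.154 in the strict gate, 0.0674 without the nuclei holding both, and -0.511 to -0.0961 with a library left out.

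The ratio of Sphkap between the Chst9 and Drd1 gates was 10.2 at a fixed depth, 9.58 without other-class UMIs, 9.93 in the strict gate, 9.28 with at least 10 Chst9 UMIs and 9.95 without the nuclei holding both. That of Cux2 was 3.80 with at least 1 Chst9 UMI, 4.61 with at least 3, 6.45 at a fixed depth, 5.75 without other-class UMIs, 5.89 in the strict gate, 5.90 with at least 10 Chst9 UMIs, 6.65 without the nuclei holding both, 3.81 with called doublets kept and 5.48 as the mean of the nuclei's own CPM. Slc35f4 had 1.08 in the strict gate, 1.20 with at least 10 Chst9 UMIs, 1.09 without the nuclei holding both and 1.11 as the mean of nuclei. Zfp804b had 0.451 at a fixed depth and Pth2r 0.566 in the strict gate. The cause of these shifts was not tested. Depth limits Pth2r and Vwa5b1 most. With no low-count filter, members were called in the Chst9 gate (Sphkap), the Drd1 gate (Sphkap), the Drd3 gate (Cux2) and the Casz1 gate (Pth2r and Slc35f4). The share of all genes called with no filter was 0.198% in the Chst9 gate, 0.209% in the Drd1 gate, 0.724% in the Drd3 gate and 2.04% in the Casz1 gate. These calls are a description, since the choice of members compared the neuron gates. With no such filter Zfp804b was called by edgeR's quasi-likelihood test in astrocytes (adjusted p = 0.00444), precursors (adjusted p = 0.0414) and microglia (adjusted p = 2.93e-05). The shares of all genes then called in these gates were 0.774%, 0.626% and 0.426%. Vwa5b1's ratio to the Drd1 gate ranged, with all libraries, from 4.35 with called doublets kept to 10.5 without the nuclei holding both. No paired analysis was possible because saline libraries are numbered 1 to 3 and naloxone libraries 4 to 6, so no number is shared.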
